A study of Drosophila melanogaster with 2 samples.

Results

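The regions described are peaks of the transcription factor E93, encoded by Eip93F, at divergent promoters of protein-coding genes in whole Drosophila melanogaster prepupae. A divergent promoter was a pair of different protein-coding genes on opposite strands that point away from each other and whose transcription start sites (TSSs) are at most 1000 bp apart. A peak was a member when its summit lay within 500 bp of at least 1 of these starts. Of the 3401 reproducible peaks on dm6, 576 (16.9%, 95% Wilson interval 15.7 to 18.2%) were members. A further 923 peaks lay within 500 bp of a protein-coding start with no such partner, and 1902 lay elsewhere. Both libraries came from strain Eip93F-MiMIC-GFP, in which a GFP exon inserted in an intron of Eip93F makes a fusion protein, and that protein was precipitated with anti-GFP antibody from prepupae of mixed sex. There was 1 group of 2 biological replicates, with the same donor line recorded for both and the age given as unknown, so there was no comparison between groups and the replicates were compared with each other. Chromatin was sheared by sonication to 200 to 800 bp.

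E93 is a helix-turn-helix factor of the ecdysone cascade, which directs the change from larval to adult tissue during metamorphosis and promotes the removal of larval tissues. Compact insect genomes place many genes head to head, so that a short stretch of DNA serves as the promoter of both. In flies such pairs include many genes that most cells use, and their promoters often carry the DRE, the site of the factor DREF, and A/T-rich, nucleosome-poor sequence. A peak between such starts cannot be assigned to either gene by position.

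The sequences at the summits of strong members are given so that the A/T-rich DNA described further on can be read. They are the stretches around the summit, cut to the bases between the starts and free of exons, from the 20 strongest members, on the plus strand of dm6. Capitals mark the TATA box word TATAAA, the BEAF-type core CGATA, the DRE with the letters TATCGATA, the GATA factor word AGATAAG or its variant TGATAAG, and the Motif 1 core GGTCACAC, on either strand.
Ugalt/eIF2Bbeta, chrX:2703853-2703951: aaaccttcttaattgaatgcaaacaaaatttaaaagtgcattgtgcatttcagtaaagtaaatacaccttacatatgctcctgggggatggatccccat
mRpS23/CenG1A, chr2L:13835396-13835496: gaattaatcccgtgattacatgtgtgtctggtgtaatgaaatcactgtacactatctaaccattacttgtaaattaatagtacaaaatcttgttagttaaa
Tcs5/CHMP2B, chr3L:5139455-5139555: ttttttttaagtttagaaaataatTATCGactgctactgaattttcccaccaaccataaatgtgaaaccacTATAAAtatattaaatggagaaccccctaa
CG7841/Z600, chr3L:15508326-15508426: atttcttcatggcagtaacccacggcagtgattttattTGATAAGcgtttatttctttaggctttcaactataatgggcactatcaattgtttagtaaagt
CG13390/CG17294, chr2L:8376833-8376933: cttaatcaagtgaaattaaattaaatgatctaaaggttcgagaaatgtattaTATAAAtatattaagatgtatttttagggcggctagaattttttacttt
CG11309/CG7632, chr3L:21304474-21304574: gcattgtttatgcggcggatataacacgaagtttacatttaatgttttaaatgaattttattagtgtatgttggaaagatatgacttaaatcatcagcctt
CG3437/CG3552, chr3L:9457733-9457833: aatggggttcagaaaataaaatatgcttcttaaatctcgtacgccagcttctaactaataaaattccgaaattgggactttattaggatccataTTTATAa
Art3/mRpS10, chr3R:15229474-15229574: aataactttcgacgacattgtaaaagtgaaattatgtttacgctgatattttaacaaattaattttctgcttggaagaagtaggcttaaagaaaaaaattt
Of these 8 stretches, those at Tcs5/CHMP2B, CG13390/CG17294 and CG3437/CG3552 held TATAAA, that at Tcs5/CHMP2B also held CGATA, and that at CG7841/Z600 held TGATAAG. None held the DRE. GC content ran from 22.8% at CG13390/CG17294 to 35.4% at Ugalt/eIF2Bbeta.

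The strongest member lay 49 bp upstream of Ugalt, which encodes a transporter of UDP-galactose into the Golgi, and on the other side faced eIF2Bbeta, a subunit of the exchange factor that recharges eIF2 in translation. Its signal was 897 in replicate 1 and 602 in replicate 2, which placed it at rank 2 and rank 1. The signal is the peak caller's own value and can be compared only within a list. The member at mRpS23/CenG1A, a mitochondrial ribosomal protein gene and a gene for a GTPase-activating protein of Arf, had a signal of 607 in replicate 1 and 495 in replicate 2. It ranked 6 and 7, so both replicates held it near the top. Chro encodes a chromatin protein that is also part of the spindle matrix, and Ssl1 a subunit of the general factor TFIIH. Their starts lie 105 bp apart, and the strongest summit there lay 78 bp inside Chro, in its 5′ UTR, with a signal of 648 in replicate 1 and 429 in replicate 2. At PNPase, a mitochondrial RNA-degrading enzyme, and Gprk2, a kinase of G protein-coupled receptors, the summit lay 65 bp inside PNPase with signals of 547 and 393 in replicates 1 and 2. These 4 were the members that ranked 30 or better in both replicates.

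The other 16 of the 20 strongest members joined genes of mixed function. Fbw5/CG9147 had signals of 468 in replicate 1 and 300 in replicate 2, with the summit on the start of CG9147. Tcs5, which acts in tRNA modification, and CHMP2B, a part of the membrane-scission complex ESCRT-III, shared a summit with signals of 351 and 263. CG7841 is paired with Z600, an inhibitor of mitosis in the embryo, and the summit there had signals of 302 and 289. It lay 124 bp upstream of CG7841 and over 500 bp from the start of Z600, as these starts are 809 bp apart. In these 3 pairs the ranks ran from 21 to 54 over both replicates. Other pairs with a gene of known role were mRpL23/CG9004, Art3/mRpS10 and mRpL41/CG8079, each with a mitochondrial ribosomal protein gene, Stt3A/bves with the catalytic subunit of the enzyme that attaches N-glycans, CG5611/Mtl with a Rac-family GTPase, imd/Dp1 with the adaptor of the Imd immune pathway, and orb2/GNBP3 with a translation regulator and a sensor of fungi. The remaining 6, CG8372/CG8360, CG13390/CG17294, CG11309/CG7632, CG3437/CG3552, CG10747/Pyroxd1 and CG10413/CG31789, joined genes with no role given here. All 20 were in the leading 3401 entries of both replicates, and in 17 the summit lay between the starts. The weakest members, at Ppt1/Ogg1, ERp44/CG3632 and Pgk/Bacc, had pooled signals of 90.0, 89.9 and 89.9. A stronger member at Pgk/Bacc, with a pooled signal of 157, fell in the same entry as this one in each replicate. That shared entry had a signal of 118 and rank 607 in replicate 1, and 50.3 and rank 2810 in replicate 2.

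Members had signals much like those of other peaks. Their pooled signal had a median of 129, with quartiles of 105 and 177 and a highest value of 1495, against a median of 132 at other coding promoters and 129 elsewhere. Of the members, 49.3% (45.2 to 53.4%) were above the median of the whole list, against 52.2% of peaks at other coding promoters. Among the 100, 300 and 1000 strongest peaks, 18, 54 and 162 were members.

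The share of members found in both replicates was close to that of all peaks. The leading 3401 entries of replicate 1 contained 465 members (80.7%) and those of replicate 2 contained 458 (79.5%). Both contained 364 members, or 63.2%, against 64.2% of all reproducible peaks, and 17 members were in neither. That set was chosen from the reads of both replicates, so these shares are no independent test. Only 14 members had no entry in the full list of 30000 entries of replicate 1, and 10 none in that of replicate 2. Over the 552 members with an entry in both, the signals had a Spearman rho of 0.544, and their log2 values a Pearson r of 0.685, as a description across sites that share the 2 libraries. Neighbouring members can share an entry, as 26 did in replicate 1 and 22 in replicate 2.

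**Figure D1:**
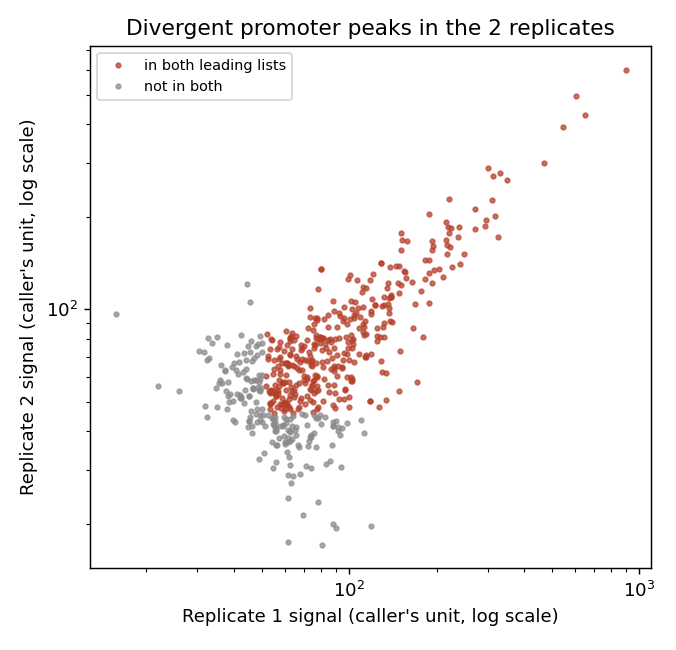
Signal of each member in replicate 1 (x axis) and replicate 2 (y axis), in the caller's unit on log axes, for the 552 members found in both full lists. Red points, the 364 members in both leading lists, extend to 897 in replicate 1 and 602 in replicate 2, and grey points are members missing from at least 1 leading list.

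Genes with a divergent start had a summit near a start more often than other genes, beyond counting error. Of 5052 genes with a divergent start, 1081 (21.4%, 20.3 to 22.5%) had a summit within 500 bp of any of their starts, against 687 of 8893 other protein-coding genes (7.73%, 7.19 to 8.30%), with 12.7% over all protein-coding genes. Replicate 1 alone gave 21.8% of genes with a divergent start and 7.86% of other genes, and replicate 2 alone gave 20.9% and 7.89%. Genes with a divergent start averaged 1.47 starts and other genes 1.37. Among genes with 1 start the shares were 17.7% and 4.54%. A summit between divergent starts counts for both genes, and 79.2% of members lay within 500 bp of both starts. Counted per base, which removes this double count, members numbered 161 per Mb of sequence within 500 bp of a divergent start (Poisson interval 148 to 175), against 78.5 per Mb within 500 bp of other coding starts (73.5 to 83.7) and 16.04 per Mb in the rest of the genome.

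Within these promoters the summits were concentrated in the bases between the starts. For the nearest pair of starts, 428 of 576 summits (74.3%, 70.6 to 77.7%) lay between them, 80 lay inside the gene on the minus strand and 68 inside that on the plus strand. Where any divergent pair of starts was allowed, 483 (83.9%) lay between. The density between starts was 434 summits per Mb (396 to 475), with 439 in replicate 1 and 412 in replicate 2, against 37.7 per Mb in the rest of the divergent windows. The 500 bp upstream of other coding starts held 122 per Mb (114 to 131), with 122 and 127 in replicates 1 and 2, and the stretch downstream of them held 31.4. Bases between divergent starts lie nearer to a start than that stretch as a whole, and are upstream of both genes. Within 150 bp of a start, the bases between divergent starts held 505 per Mb (456 to 558), against 154 per Mb (137 to 173) in the 150 bp upstream of other coding starts. Further from the starts the densities were 277 per Mb (225 to 338) between divergent starts and 108 per Mb (98.0 to 118) upstream of other coding starts. By annotation, 58.7% of member summits were intergenic, 22.7% in a 5′ UTR and 15.97% in an intron, against 37.6%, 20.3% and 36.7% of summits at other coding promoters.

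Summits sat at a short, narrow distance upstream of the nearer start. The median position was 83 bp upstream, against 129 bp upstream at other coding promoters. Positions 50 to 150 bp upstream held 47.7% of members (43.7 to 51.8%) and 22.97% of other promoter summits. The distance is bounded, since a summit between starts can be no further from the nearer start than the midpoint. Where starts were 501 to 750 bp apart, the midpoint lay on average 299 bp from each start, and the median summit between them lay 153 bp from the nearer start and 129 bp from the midpoint. Where starts were 751 to 1000 bp apart, the median summit lay 146 bp from the nearer start and 278 bp from the midpoint, and 2 of 44 lay within 50 bp of the midpoint. With starts 201 to 300 bp apart, the median was 90 bp from the nearer start and 99 of 143 summits lay within 50 bp of the midpoint. Of the members, 508 had the largest width among them, 410 bp, so a summit is a point in a stretch wider than these distances.

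**Figure D2:**
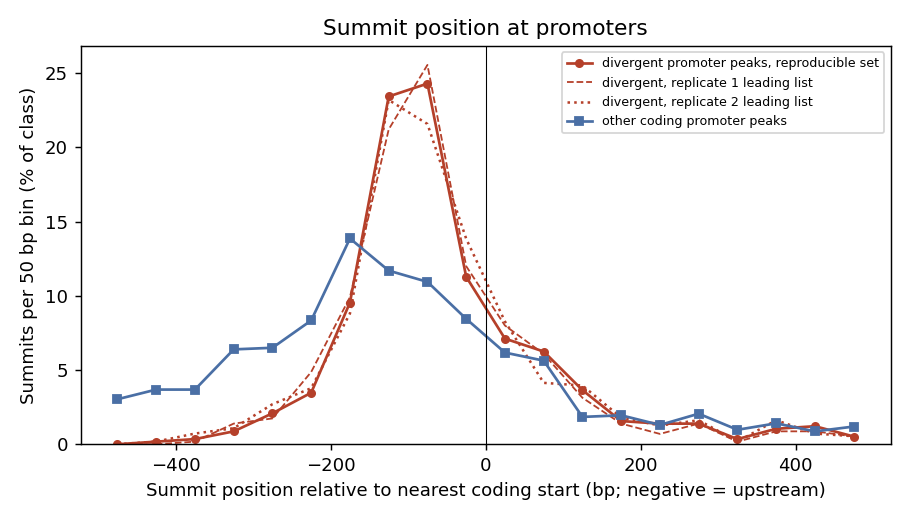
Share of summits per 50 bp bin (y axis, % of each class) against position relative to the nearest protein-coding start (x axis, bp, negative is upstream). Red lines are members in the reproducible set and in the leading list of each replicate, with 24.3% between 100 and 50 bp upstream, and the blue line is other coding promoter peaks, with 10.9% in that bin.

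The spacing of the starts went with how many promoters held a summit. There were 2667 divergent promoters, of which 587 (22.01%, 20.5 to 23.6%) held at least 1 member. Each gene pair was counted as 1 promoter, so a summit at several pairs counted for each of them. The most were the 21 pairs at the summit of pre-mod(mdg4)-E/pre-mod(mdg4)-Y. The intervals treat pairs as separate, although some share a summit. Gene pairs with several starts were classed by their closest starts, but a summit at any of their divergent starts counted. Fer1HCH/Fer2LCH, for example, was classed at 98 bp, while its strongest summit was assigned to starts 652 bp apart. Summits were found at 31.2% of promoters with closest starts 201 to 300 bp apart (169 of 542, 27.4 to 35.2%) and at 30.5% of those 301 to 400 bp apart (122 of 400, 26.2 to 35.2%). The share was 14.0% at 101 to 200 bp (50 of 357, 10.8 to 18.0%) and 16.6% at 1 to 100 bp (71 of 429, 13.3 to 20.4%). It was 20.6% at 401 to 500 bp, 17.1% at 501 to 750 bp and 19.2% at 751 to 1000 bp. In replicate 1 alone the class of 201 to 300 bp stood at 32.5% and that of 101 to 200 bp at 14.0%, and in replicate 2 alone at 30.6% and 12.04%. With a fixed window of 250 bp to either side of the midpoint, which gives each class the same searched length, the shares were 29.7% and 28.3% for the classes from 201 to 400 bp, and 11.9%, 10.6% and 16.9% for the classes of 1 to 100, 101 to 200 and 401 to 500 bp. In the 2 narrowest classes most of that window lies beyond the starts, where summits were sparse, so the classes are not alike in bases between starts. For the classes of 501 to 750 and 751 to 1000 bp the window gave 11.4% and 6.80%, but there it leaves out the bases next to the starts, where many summits lay, so these shares cannot be set against the others. The median spacing of promoters with a summit, 302 bp, was close to that of promoters without, 301 bp, with classes of few summits on both sides.

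**Figure D3:**
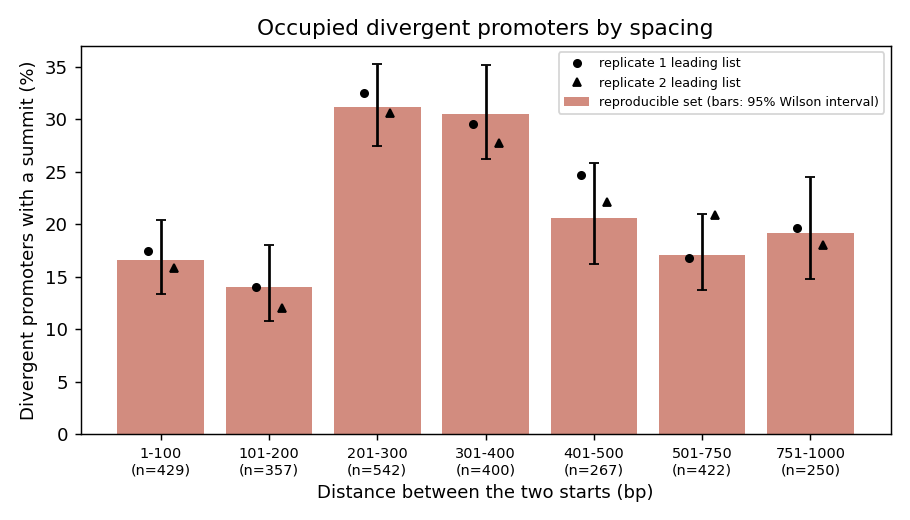
Share of divergent promoters with a summit (y axis, %) by the distance between their closest starts (x axis, bp, with the number of promoters). Bars are the reproducible set with 95% Wilson intervals, and points are the leading lists of each replicate. The classes from 201 to 400 bp stand at 31.2% and 30.5%, and their intervals do not overlap those of the 2 narrower classes.

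Of the members, 37 lay at more than 1 gene pair, and 1 of them at 21 pairs. Of the promoters that held a summit, 541 held 1, 44 held 2 and 2 held 3. Fer1HCH/Fer2LCH, which encode the heavy and light chains of secreted ferritin, held 3 summits with pooled signals of 227, 128 and 99.8. Nop56/mats, a nucleolar protein of rRNA modification and a cofactor of the Hippo pathway kinase Warts, held 3 with signals of 105, 97.8 and 95.3. The pairs with 2 summits and the strongest of these were Chro/Ssl1, Acbp1/Piezo, Irbp18/APP-BP1, Vha100-2/Vti1b, CG43116/E(spl)mdelta-HLH, Hsc70-5/CG8531, CG32428/isoQC and Septin2/Srp72. At Irbp18/APP-BP1 and Hsc70-5/CG8531, both summits fell in the same entry of each replicate. At Acbp1/Piezo and Vha100-2/Vti1b they shared an entry in replicate 1 alone, and 2 of the 3 summits at Nop56/mats shared an entry in replicate 2. Across the arms, the share of promoters with a summit was 16.9% on X, 22.2% on 2L, 19.9% on 2R, 26.8% on 3L and 23.3% on 3R, and 0 of 11 on 4. Without the pooled reads, 418 promoters held a leading summit in both replicates, which is 69.1% of the 605 of replicate 1 and 72.1% of the 580 of replicate 2. For genes with no divergent start the shares were 67.8% and 67.5%, but these count single genes and not pairs, so the units differ.

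The genes at occupied divergent promoters were described by 18 lists of gene symbols. Of all genes with a divergent start, 21.9% belonged to a promoter with a summit. Genes of cytoplasmic ribosomal proteins (13 of 53), mitochondrial ribosomal proteins (12 of 59), tRNA synthetases (6 of 22), translation factors (5 of 25), Mediator and TFIID subunits (6 of 31) and splicing factors (5 of 27) had shares of 18.5 to 27.3%, near that background, and replicate 2 alone gave 3 splicing genes. With a summit within 500 bp of a gene's own starts required, cytoplasmic ribosomal proteins had 10 of 53, translation factors 4 of 25, and Mediator and TFIID subunits 5 of 31. The counts of the other lists named here were unchanged. RpL32 had a signal of 165 in replicate 1 and 122 in replicate 2, and RpL34b had 137 and 108. Among tRNA synthetases AspRS was strongest, with 155 and 133, and among Mediator and TFIID subunits Taf4, with 149 and 138. Among translation factors eIF2Bbeta had the strongest summit at its promoter, but that summit lay 49 bp upstream of Ugalt. It was over 500 bp from the start of eIF2Bbeta, which was not in the count of 4. Next was eIF4EHP, at 193 and 121. Among splicing genes U4-U6-60K had the highest pooled signal, with 53.4 and 74.1 in the replicates, but snRNP-U1-C was higher in both, with 68.2 and 76.6.

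Autophagy and cell death had the highest shares beside the ecdysone response, in small lists. Autophagy had 6 of 16 genes (37.5%, 18.5 to 61.4%), with Atg17 at signals of 138 and 101 in replicates 1 and 2, Atg2 at 84.2 and 95.9, and Atg8a, the ubiquitin-like protein of the autophagosome membrane, at 82.1 and 93.0. Atg9, the transmembrane protein that supplies that membrane, had 64.3 and 79.1. Cell death had 4 of 8 genes (50%, 21.5 to 78.5%). Diap1, which blocks caspases, had 73.5 and 100.5, and Dark, the scaffold of the apoptosome, had 91.8 and 40.02. Dredd, a caspase of the Imd pathway, had 71.9 in replicate 1 and no entry in replicate 2, with the summit 202 bp inside its partner su(sable). grnd, a receptor for the TNF homologue Eiger, had 48.8 and 54.5. Both intervals included 21.9%. With starts at most 500 bp apart the cell death list had 1 gene left at a promoter with a summit, Dredd, which had no entry in replicate 2. With summits within 250 bp the list had 2. With a summit within 500 bp of a gene's own starts required, it had 3 of 8, without Dredd. Of the genes with no divergent start, 4 of 11 (36.4%) in the cell death list and 0 of 4 in the autophagy list had a summit within 500 bp of a start. The share over all genes with no divergent start was 7.73%.

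In the ecdysone response, 3 of 6 genes with a divergent start were at a promoter with a summit. ImpE3 had signals of 137 and 97.2 in replicates 1 and 2, tai, a coactivator of the ecdysone receptor, had 129 and 67.5, and Hr3, an ecdysone-induced nuclear receptor, had 92.1 and 51.1. The summit for Hr3 lay 75 bp upstream of its partner Hdc. With a summit within 500 bp of a gene's own starts, 2 of 6 genes were counted, and with starts at most 500 bp apart 1 gene of this list was left. Of the ecdysone genes with no divergent start, 13 of 23 (56.5%) had a summit within 500 bp of a start. The high share was thus not particular to divergent promoters. Heat shock proteins had 3 of 10, or 4 of 10 with a summit within 500 bp of the gene's own starts. Of the heat shock genes with no divergent start, 6 of 17 (35.3%) had a summit within 500 bp of a start. Hsp83, the Hsp90 chaperone, had 180 and 81.1. Hsc70-5 had 80.1 and 135, and Hsc70-4 had 73.1 and 94.2. The list of coat and exocyst proteins had 3 of 10, with Sec6 and Sec15 of the exocyst and beta'COP of the coatomer, and replicate 2 alone gave 5.

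Lists with low shares were proteasome subunits with 2 of 26 (Rpn9 and Prosalpha6), respiratory chain and ATP synthase subunits with 5 of 44, the vacuolar proton pump with 1 of 14 (Vha100-2) and Rab GTPases with 0 of 17. The intervals of the first 3, 2.14 to 24.1%, 4.95 to 23.98% and 1.27 to 31.5%, included 21.9%, and that of the Rab genes reached 18.4%. Genes of these lists with no divergent start had a summit within 500 bp of a start in few cases too. The counts were 1 of 22 proteasome, 0 of 42 respiratory, 2 of 19 proton pump and 1 of 14 Rab genes, against 7.73% over all such genes. Replicate 1 alone placed 11 respiratory genes and 3 proton pump genes at promoters with a summit, and each replicate alone placed 1 Rab gene there. ND-ASHI, a subunit of complex I, was the strongest of the respiratory genes at 194 and 160 in replicates 1 and 2, followed in pooled signal by ND-MNLL at 74.6 and 65.3. Nucleoporins had 3 of 18, or 1 of 18 with a summit within 500 bp of the gene's own starts, a count that gave 1 of 17 for Rab genes. DNA replication had 3 of 16 (Mcm10, Mcm2 and Psf3) and mitochondrial import 1 of 6 (Tim9a).

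**Figure D4:**
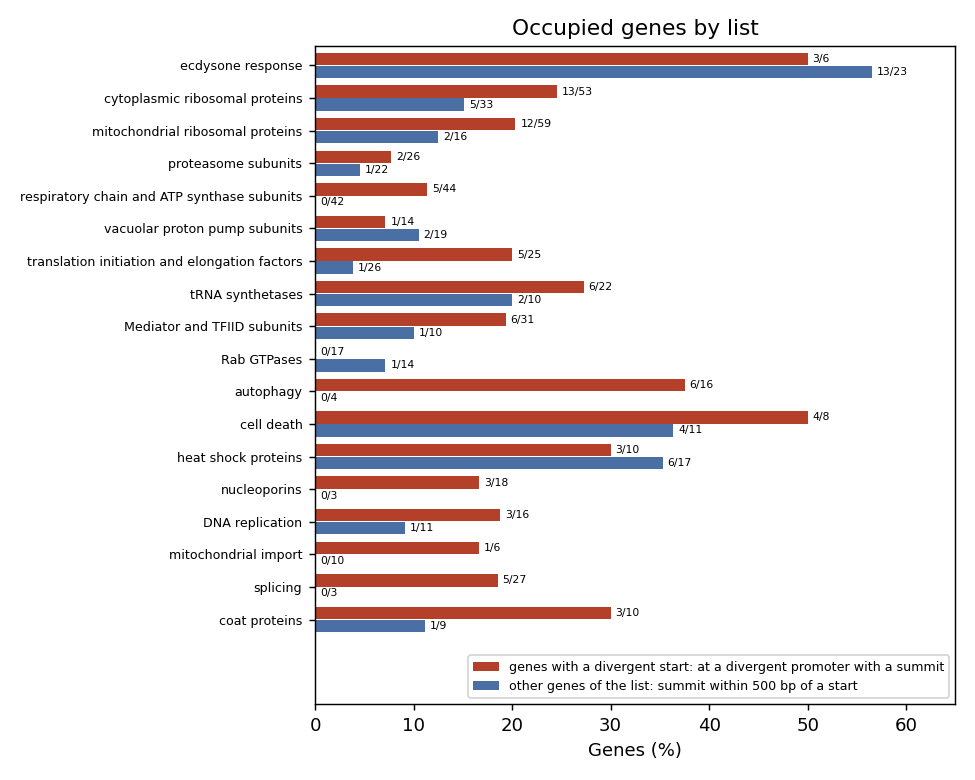
Share of genes (x axis, %) in each list (y axis). Red bars are genes with a divergent start that belong to a divergent promoter with a summit, blue bars are the other genes of the list with a summit within 500 bp of a start, and counts stand at the bars. The red bars run from 0 of 17 Rab GTPases to 4 of 8 cell death genes.

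The base composition at member summits was A/T-rich. The 101 bp centred on the summit had a mean GC content of 32.3% (SD 8.67, n = 576), with 32.2% in replicate 1 and 32.4% in replicate 2. Flanks centred 500 bp to either side had 47.5%, other coding promoter peaks 37.2% (SD 10.6, n = 923), midpoints of divergent promoters with a summit 30.8% (SD 10.5, n = 587), midpoints of those without 34.2% (SD 10.5, n = 2080) and all protein-coding gene starts 43.1%. The midpoints of the promoters with a summit had a mean below that of the summits themselves. GC content was lowest at the summit, with 30.2% in the bases just before it. It rose gradually to 38.1% at 110 bp to either side, and to 45.7% and 46.4% at 390 bp. At divergent promoters without a summit the profile was flat around the midpoint, at 34.0 to 34.6% in the innermost bins. These 2 profiles have different centres, so their shapes cannot be set against each other, and none was made for midpoints of promoters with a summit.

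**Figure D5:**
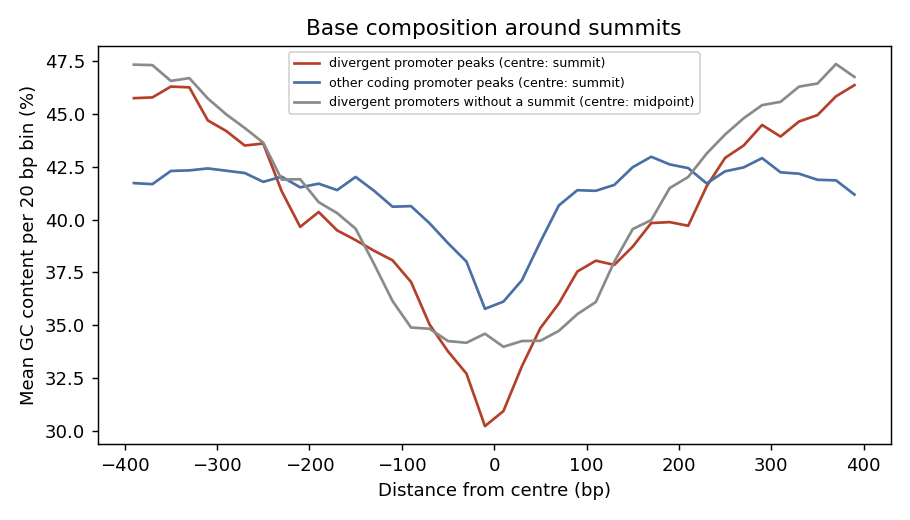
Mean GC content per 20 bp bin (y axis, %) against distance from the centre (x axis, bp). The red line, members centred on the summit, falls to 30.2%, the blue line is other coding promoter peaks and the grey line is divergent promoters without a summit centred on the midpoint of the starts.

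TATAAA was the preset word most often found within 50 bp of a member summit, in 31.4% of members (27.8 to 35.3%), against 7.90% of flanks, 18.7% of other coding promoter peaks and 17.0% of windows at all gene starts. At the midpoints of divergent promoters it was in 26.7% of those with a summit and 21.6% of those without. Between the starts of a pair as a whole, it was in 43.8% of promoters with a summit and 39.1% of those without for starts 101 to 300 bp apart, 59.9% and 66.5% at 301 to 500 bp, and 86.7% and 80.8% at 501 to 1000 bp, so the direction turned with the spacing. The letters are A/T-rich like the summits, and the part of base composition in this difference was not tested. Among the 2080 6-mers, each joined with its reverse complement, the 10 with the greatest excess over flanks were made of A and T alone. The Motif 7 core CATCNCTA was in 3.82% of members, 1.04% of flanks and 3.96% of windows at all gene starts. The Motif 1 core GGTCACAC was in 2.08% of members, 0.52% of flanks and 5.59% of windows at all gene starts.

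The DRE was sparser at the summits than at gene starts, but not sparser than in flanks or at other promoter peaks. It lay within 50 bp of 10 of 576 summits (1.74%, 0.95 to 3.17%), against 5.53% of midpoints of divergent promoters without a summit and 5.56% of windows at all gene starts. The DRE was in 0.95% of flanks, 1.19% of other coding promoter peaks and 0.05% of peaks elsewhere. It was in 2.56% of midpoints of divergent promoters with a summit. Replicate 1 alone gave 2.96% of its summits and replicate 2 alone 2.70%. The shorter core CGATA, which is part of the DRE, was near 19.1% of members, against 11.98% of flanks, 25.2% of midpoints without a summit and 25.8% of windows at all gene starts. Among 6-mers, the greatest deficit against those midpoints was that of ATCGAT, the centre of the DRE, found at 6.08% of members and 13.4% of midpoints. The next was its neighbour TATCGA, at 9.72% of members and 15.4% of midpoints, and then the overlapping CGATAA, at 6.42% and 12.02%. These windows have different centres, the summit and the midpoint. In flanks and at other coding promoter peaks, ATCGAT was in 4.34% and 4.55%, TATCGA in 3.47% and 6.07%, and CGATAA in 4.60% and 7.26%. Members were thus lower than those peaks for CGATAA alone, and lower than flanks for none. Within 400 bp, however, 126 members (21.9%) had a DRE, at a median distance of 158 bp, against 61 of 923 other coding promoter peaks (6.61%). Between the starts of a pair as a whole, the DRE was in 14.2% of promoters with a summit and 15.0% of those without for starts 101 to 300 bp apart, 24.9% and 20% at 301 to 500 bp, and 28.3% and 17.4% at 501 to 1000 bp. Of the 10 members with the DRE near the summit, 3 are shown next, not the strongest of them, with the DRE in capitals, on the plus strand of dm6.
bmm/Tdrd3, chr3L:14786496-14786596: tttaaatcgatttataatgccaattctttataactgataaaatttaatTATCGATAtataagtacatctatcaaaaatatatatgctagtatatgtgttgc
CG9427/CG8319, chr3R:9627079-9627179: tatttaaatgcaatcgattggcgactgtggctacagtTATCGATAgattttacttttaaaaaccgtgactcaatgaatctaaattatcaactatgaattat
Ptp61F/CG9166, chr3L:1350773-1350873: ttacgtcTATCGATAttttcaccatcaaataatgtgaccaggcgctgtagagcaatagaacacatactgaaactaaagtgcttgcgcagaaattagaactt
These 3 had pooled signals of 130 at bmm/Tdrd3, 109 at CG9427/CG8319 and 95.8 at Ptp61F/CG9166, below those of the strongest members.

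The GATA factor word, AGATAAG or TGATAAG, was in 22 of 576 members (3.82%, 2.54 to 5.72%), against 2.43% of flanks, 5.85% of other coding promoter peaks and 2.42% of windows at all gene starts. It was more frequent in peaks elsewhere, at 8.04%. At midpoints of divergent promoters it was in 2.39% of those with a summit and 3.03% of those without. Replicate 1 alone gave 2.96% of its summits and replicate 2 alone 4.32%. Members with it are shown with the word in capitals, on the plus strand of dm6, in addition to the stretch at CG7841/Z600 printed above.
Ank2/Mcad, chr3L:7719147-7719247: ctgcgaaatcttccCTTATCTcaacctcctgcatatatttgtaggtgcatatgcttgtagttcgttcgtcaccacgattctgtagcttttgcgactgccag
Atat/Shc, chr3L:9426830-9426930: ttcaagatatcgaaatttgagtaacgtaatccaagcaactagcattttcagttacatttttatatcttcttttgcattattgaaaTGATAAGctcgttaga
tth/Tango2, chrX:13616784-13616884: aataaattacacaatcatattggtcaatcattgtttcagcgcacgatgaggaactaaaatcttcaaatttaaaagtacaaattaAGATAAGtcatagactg
Their pooled signals were 380 at Ank2/Mcad, 371 at Atat/Shc and 222 at tth/Tango2. GAGAG was rarer at member summits (8.68%) than in their flanks (15.1%) and at other coding promoter peaks (14.3%), with 11.5% at all gene starts. At midpoints of divergent promoters it was in 8.35% of those with a summit and 7.5% of those without, so the low share was not particular to member summits. The nuclear receptor site AGGTCA was in 2.26% of members, 2.86% of flanks and 1.63% of windows at all gene starts. The initiator word TCAGTT or its variant TCAGTC was in 6.42% of members and 21.4% of windows at all gene starts. For the E-box CAGCTG these shares were 5.38% and 9.34%, for the E-box CACGTG 1.04% and 1.98%, for the AP-1 core TGANTCA 1.91% and 1.80%, and for the CRE with the letters TGACGTCA 0.52% and 0.11%. The Ets word CCGGAAGT and the Zelda word CAGGTAG were in 0 of 576 members, which allows a share of up to 0.521% by a floor of 3 counts and 0.663% by the 95% Wilson interval. The Ets word was in 0.09% of flanks and 0.15% of windows at all gene starts, and the Zelda word in 0.61% and 0.44%. These shares all lie below 0.663%, so the 0 counts do not set members apart.

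The members near the limits of the rule were few. Starts were over 900 bp apart for 19 members, and 5 summits lay over 450 bp from the nearer start. A limit of 1500 bp between starts would have added 66 peaks, and a limit of 1000 bp from a start 106.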

How the data were processed

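Chromatin immunoprecipitation with sequencing was measured in 2 biological replicates of 1 group. Per the notes deposited with the files, peaks were called on dm6 for each replicate, for both pooled, and for a reproducible set by the irreproducible discovery rate. The deposited signal of each peak is the authors' caller's own value against a control, comparable only within a list. For aligner and peak caller, names and versions were not given in the sources used here. Read depth is unknown, so intervals cover counting error only. Nothing states that the replicates came from separate crosses.

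Summits were placed on Ensembl release 115 starts of protein-coding transcripts and dm6 sequence from RefSeq of the same assembly (Python 3.11.15, pandas 2.3.3, scipy 1.17.1). The leading list of a replicate is its 3401 entries of highest signal. A member is in a replicate's list when its summit lies in an entry. Shares carry 95% Wilson intervals and densities exact Poisson intervals. No p-values were computed. Words were searched on both strands within 50 bp of summits. Pair finding, classes and word search were tested on simulated data.

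The genes named are those at the 20 strongest members, the 10 pairs with most summits, up to 4 genes per list and the 3 weakest members. Sequences come from the 20 strongest members and from members with the DRE or GATA word, off 2R. The members, lists and words were chosen with earlier results of these data known. Alternatives were a distance of 250 bp, starts at most 500 bp apart, gene 5′ ends alone, each replicate alone, the 1700 strongest peaks, the entries ranked next below the set, overlap of 1 bp and windows of 25 and 100 bp. The dm3 lists were not used here.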

Additional observations from a re-analysis of the deposited data

How the results depend on the processing

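With each replicate alone, results ranged over 556 to 575 member summits, 21.7 to 22.7% of promoters held, 20.9 to 21.8% of genes with a divergent start and 7.86 to 7.89% of other genes with a summit, 74.5 to 75.7% of summits between starts and 51.1 to 51.6% above the list's median. A distance of 250 bp gave 20.5% of promoters, 17.5% of divergent and 5.84% of other genes, and 78.2% between starts. Starts at most 500 bp apart gave 23.7% of divergent and 8.53% of other genes, and gene 5′ ends alone 19.1% and 6.65%. The 1700 strongest peaks held 284 members, at 11.96% of promoters, 11.5% of divergent and 4.23% of other genes, with 78.2% between starts and 91.9% in both leading lists, fewer peaks by construction. The 3401 entries ranked next below the set gave 389 members, with 14.8% of divergent and 8.04% of other genes, and 65.8% between starts. The difference between the gene shares was smaller there than in the set, with 21.4% and 7.73%. In those entries the DRE was near 3.86% of summits. The shares given for those entries were added after seeing the data, as were the other word shares in them. The same holds for the gene shares, mean GC and densities near a start in any setting, and for the list counts under the alternatives. A window of 100 bp gave the DRE near 6.25% of members. Of 44 main values under alternatives, 28 stayed within their interval or 1.5 times the count and 16 did not. Of 252 values for words, GC and lists, 199 stayed and 53 did not. No paired analysis was possible because there is 1 group of 2 replicates.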
